A study of Mus musculus with 9 samples.

Results

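The ribosome of the cytosol is built from a large and a small subunit, and the genes of its proteins are among the most heavily transcribed of a mammalian cell. They were taken from the expression table as the rows whose symbol starts with Rpl, Rps or Rplp followed by a digit. The rule left out 8 symbols of the Rps6k kinases, which are enzymes and not ribosomal proteins, and 7 symbols that carry -ps, the mark of a pseudogene. It found 87 of the 14905 genes in the table, 53 with large subunit and 34 with small subunit symbols. Of these, 76 were core genes (46 large, 30 small), 10 were paralogs or retrocopies (Rpl3l, Rpl7l1, Rpl22l1, Rpl32l, Rpl36al, Rpl37rt, Rpl39l, Rps4l, Rps27l and Rps27rt), and Rps19bp1 encodes a protein that binds a ribosomal protein and is not one itself. Rpsa, Fau and Rack1 (listed under its older symbol Gnb2l1) also encode ribosomal proteins, and their symbols lie outside the rule.

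RNA was sequenced from cells carrying F4/80 and CD11b, surface proteins of macrophages, sorted from the visceral fat of mice of the C57BL/6 background. Of the 9 libraries, 5 came from Nucb2-/- mice (KO) and 4 from wild-type mice (WT). The study asked about nucleobindin-2 and insulin sensitivity in obesity. The name of the deposited table, which holds both groups, carries the letters HFD, not spelled out in the labels. The labels state neither diet nor age for either group, nor how the Nucb2 allele was made, nor whether each library is a separate animal, so the p-values below measure the spread between libraries. All values are normalized counts, read counts divided by 1 factor per library.

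The reads recovered from the steps of the values came to 74937721 to 85200103 in 6 libraries (KO 1 to 4, WT 1 and 2) and to 51148957 to 55004978 in the other 3. Nucb2, the gene labelled -/- in KO, had 1165 to 1752 normalized counts in KO and 3311 to 5233 in WT, with no overlap and a log2 difference of -1.52 (SE 0.166; limma adjusted p = 0.000539), although over the 6 deeper libraries alone the adjusted p was 0.116. All 10 macrophage markers were measured, and 0 passed the test, against 46 of all 14905 genes (0.309%). They summed to 1343180 to 1540760 counts in KO and 1352800 to 1519860 in WT, mostly of Lyz2. Some of them lay apart: C1qa (log2 difference -0.50, limma adjusted p = 0.0667) and Fcgr1 (-0.50, adjusted p = 0.123) were lower in each KO library than in any WT library, and of the sort antigens Adgre1 (F4/80) differed by -0.22 (adjusted p = 0.284) and Itgam (CD11b) by 0.18 (adjusted p = 0.519), with overlapping ranges. The sum over all genes was 65109031 to 67031402 in KO and 68500063 to 70902637 in WT, with no overlap. This last difference bears on each direction reported here: dividing by the library total in place of the deposited factor raises the log2 difference of a gene by 0.0756 in the median and moved the median of all genes from 0.02 to 0.10.

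Ribosomal proteins assemble with ribosomal RNA in the nucleolus, in nearly equal numbers of each protein, and protein made in surplus is degraded. Most of their messenger RNAs begin with a C followed by a run of pyrimidines, the terminal oligopyrimidine tract (TOP), through which the kinase mTOR and the binding protein LARP1 set how much of the message is translated. That control acts on translation, which RNA-seq does not measure. Some ribosomal proteins also act outside the ribosome, among them Rpl5 and Rpl11, which bind Mdm2, the ligase that degrades p53.

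The start regions show what the genes share apart from their levels. RefSeq promoter sequences (build GRCm38.p6) were matched for 66 of the 87 genes. The windows printed below run from 40 bases before the annotated start to 20 bases from it, 5′ to 3′ on the strand of the gene, with the pyrimidine tract in capitals. The first 4 are core genes with a tract that begins exactly at the annotated start, on chr14:18270967-18271026 (minus strand, Rpl15), chr2:39005112-39005171 (minus strand, Rpl35), chr4:86857348-86857407 (minus strand, Rps6) and chr17:27635225-27635284 (minus strand, Rps10).
Rpl15: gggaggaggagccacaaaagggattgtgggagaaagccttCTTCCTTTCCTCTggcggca
Rpl35: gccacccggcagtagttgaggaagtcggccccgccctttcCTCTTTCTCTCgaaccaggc
Rps6: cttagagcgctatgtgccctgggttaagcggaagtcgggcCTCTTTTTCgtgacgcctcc
Rps10: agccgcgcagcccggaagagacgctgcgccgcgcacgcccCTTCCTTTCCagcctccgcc
The next 3 are core genes whose counts lay lower in each KO library than in any WT library, on chr7:109519155-109519214 (plus strand, Rpl27a), chr7:118116128-118116187 (minus strand, Rps15a) and chrX:37085203-37085262 (minus strand, Rpl39).
Rpl27a: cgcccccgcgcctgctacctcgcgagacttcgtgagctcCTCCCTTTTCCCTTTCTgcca
Rps15a: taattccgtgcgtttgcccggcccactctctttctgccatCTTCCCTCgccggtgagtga
Rpl39: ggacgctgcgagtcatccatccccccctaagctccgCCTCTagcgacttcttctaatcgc
The last 4 are Rps27 on chr3:90213629-90213688 (minus strand), its retrocopy Rps27rt on chr9:114982720-114982779 (minus strand), its paralog Rps27l on chr9:66946046-66946105 (plus strand, the first of its annotated starts), and Rplp0 on chr5:115559427-115559486 (plus strand). In Rplp0 no tract was found within 5 bases of the annotated start, the reach of the search.
Rps27: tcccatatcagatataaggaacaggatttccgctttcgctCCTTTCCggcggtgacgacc
Rps27rt: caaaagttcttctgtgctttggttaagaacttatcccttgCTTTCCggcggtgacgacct
Rps27l: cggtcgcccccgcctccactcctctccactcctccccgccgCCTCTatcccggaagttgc
Rplp0: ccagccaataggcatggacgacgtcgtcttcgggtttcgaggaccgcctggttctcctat

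A tract, searched as a C followed by at least 4 pyrimidines on the strand of the gene, began exactly at an annotated start in 15 of the 66 genes (22.7%), against 3.01% of the 27025 genes in the promoter table and 3.01% of the 11283 of them in the expression table. Within 5 bases on either side of a start it was found in 31 of 66 (47.0%), against 21.2% and 23.8%. The core of the binding site of ETS factors, CCGGAAG on either strand in the 250 bases before to 50 after the start, was found in 25 of 66 (37.9%) against 9.93% of all and 17.9% of expressed genes, and the YY1 core AAGATGGC on either strand in 6 of 66 (9.09%) against 3.19% and 4.80%. The TATA box TATAAA, on the strand of the gene, was found in 7 of 66 (10.6%) against 9.77% and 5.88%. A match of YY1 overlapped the tract in 1 gene, Rps15a, and a match of ETS did so in 1, Rpl34. By subunit, the tract exactly at a start was found in 8 of 41 large and 7 of 25 small subunit genes, and the ETS core in 15 of 41 and 10 of 25. The core genes with a tract exactly at the start had a median log2 difference between genotypes of -0.08 and those without one -0.09. The tract search rests on annotated starts, so a gene without a match here may still have a tract at a start that is not annotated.

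The ribosomal protein genes held 4.68% to 5.22% of all counts in these cells, and the genotypes differed by less than the spread of the libraries. Their share of all normalized counts was 5.11%, 5.13%, 4.80%, 4.94% and 4.88% in KO 1 to 5 and 4.97%, 5.22%, 4.94% and 4.68% in WT 1 to 4. The highest and the lowest share were both in WT libraries. The means were 4.97% ± 0.147 (SD, n = 5) in KO and 4.95% ± 0.223 (SD, n = 4) in WT. This share does not depend on the factor by which a library is scaled.

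**Figure D1:**
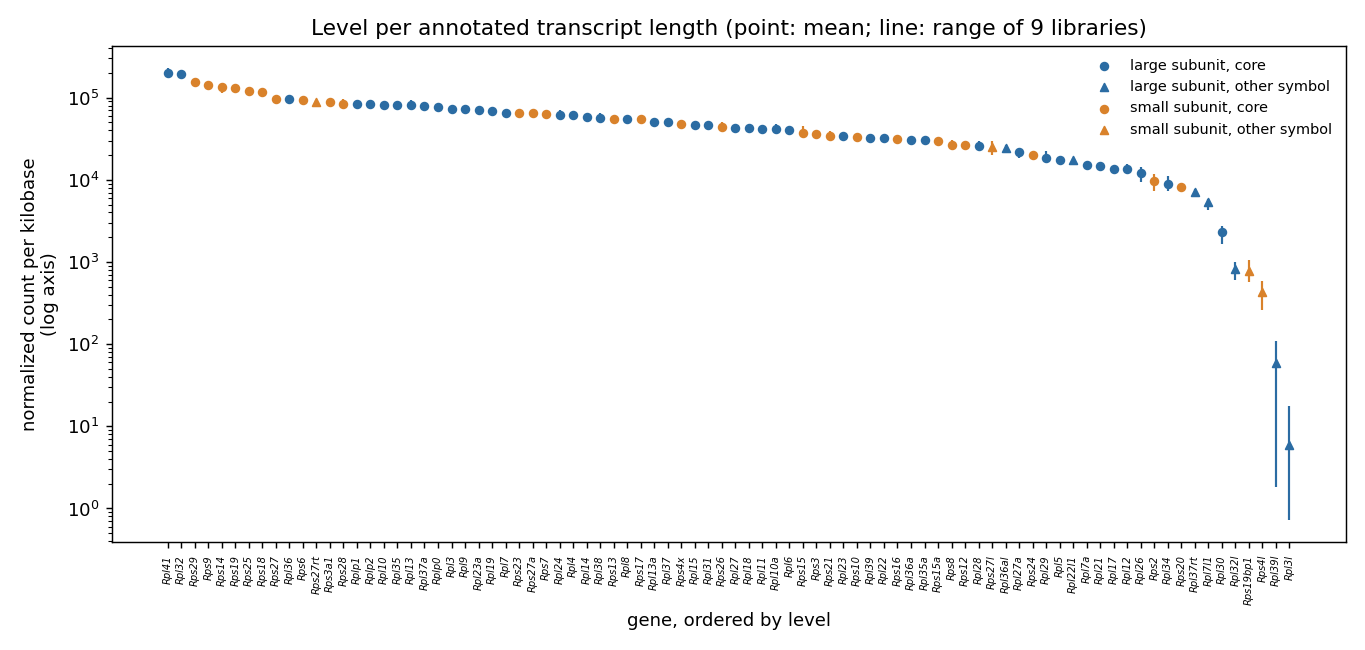
Mean normalized count per kilobase of annotated transcript (log axis) for the genes shown in order of level; points are means and lines the range of the 9 libraries, blue for large and orange for small subunit symbols, triangles for paralogs, retrocopies and Rps19bp1. Rpl30 lies at 2288, the other core genes shown lie between 8099 and 197857, and the paralogs Rpl39l and Rpl3l lie lowest.

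Levels were compared between genes per kilobase of annotated transcript (normalized count per kb, mean of 9 libraries, GENCODE M21 lengths). Rpl41, the shortest ribosomal protein with a coding length of 75 bases, stood highest at 197857 per kb, followed by Rpl32 at 194509, Rps29 at 153618, Rps9 at 142168, Rps14 at 134488 and Rps19 at 130435. The first 2 differed by less than the spread of the libraries. The median core gene stood at 48200 per kb in the large and 59429 per kb in the small subunit. Single core genes ran from 2288 to 197857 per kb, while the ribosome holds their proteins in nearly equal numbers. These are levels as counted, and reads may have been divided among copies, so the spread of the messages themselves was not established. The lowest core genes were Rpl30 at 2288, Rps20 at 8099, Rpl34 at 8779 and Rps2 at 9580 per kb. For Rps20 the annotated transcript runs to 3706 bases for a coding length of 357, which lowers its value per kb.

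How reads shared between near-identical genes were counted is not given in the sources used here, and few gene families are copied as often as this one. Over the 76 core genes a median of 92.3% of the 50-base words of the coding sequence occurred in a transcript of at least 1 other annotated gene, and in 29 of the 76 all words did. Only 10 core genes shared under 50% of their words; Rps3 shared 8.09%, Rpl8 8.73% and Rpl4 20.3%. The pseudogene row Rpl34-ps1 held 20773 ± 1225 counts in KO (SD, n = 5) and 22219 ± 1318 in WT (SD, n = 4), while Rpl34 itself held 3946 ± 508 and 4549 ± 555. The pseudogene row Rpl14-ps1 held 13253 ± 560 and 13126 ± 559, beside 58209 ± 1767 and 58054 ± 2402 for Rpl14. Levels of single genes in this family are therefore uncertain to the extent that the reads were divided among copies. Across the 76 core genes the level per kb and the share of shared words had a Spearman rho of -0.04, given across genes as a description.

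No ribosomal protein gene passed the test between genotypes. Of the 87 genes, 0 had a limma adjusted p under 0.05, against 46 of all 14905 genes (0.309%), and limma-voom on the recovered reads also called 0. The smallest adjusted p was 0.168, for Rps29. At an unadjusted p under 0.05, 8 genes were lower in KO (3 large, 5 small). That was 9.20% of the 87, against 3.78% of all genes and 14.2% of the 1077 genes with a mean of at least 10000 counts. At the same threshold 0 were higher, against 800 of all 14905 genes and 59 of those 1077. With the deposited factors the difference lay under 0 in 80 of the 87 genes (46 of 53 large, 34 of 34 small; 47.6% of all genes), whereas with total-count scaling it did in 51 (28 of 53 large, 23 of 34 small; 38.3% of all genes) and above 0 in 36.

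The differences were small on either scale. The median log2 difference was -0.08 for large and -0.11 for small subunit genes with the deposited factors, against 0.02 for all genes, and -0.0044 and -0.03 with total-count scaling, against 0.10. The median of the 87 genes lay 0.11 below that of all genes, a distance that dividing by 1 factor per library cannot change, and 0.03 below it after quantile normalization, which can. Against the 1077 genes with a mean of at least 10000 counts, the level of most ribosomal protein genes, it lay 0.04 below with the deposited factors and 0.04 below after quantile normalization. Of these 1077 genes, 67.2% lay under 0 with the deposited factors and 43.5% with total-count scaling. In bulk RNA, fewer cells of a type and less RNA per cell cannot be told apart.

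The libraries were precise for these genes, so that the bounds are narrow. The coefficient of variation among WT libraries had a median of 5.35% over the 87 genes, against 8.0% over the genes with at least 10000 counts and 29.3% over all genes. The 95% interval of the log2 difference reached a median of 0.149 to either side of its estimate, and in 81 of the 87 genes the whole interval lay inside 0.5 on either side of 0. The exceptions were 6 genes with low or scattered counts, of which Rpl30 was the only core gene (log2 difference -0.27, interval -0.68 to 0.14).

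**Figure D2:**
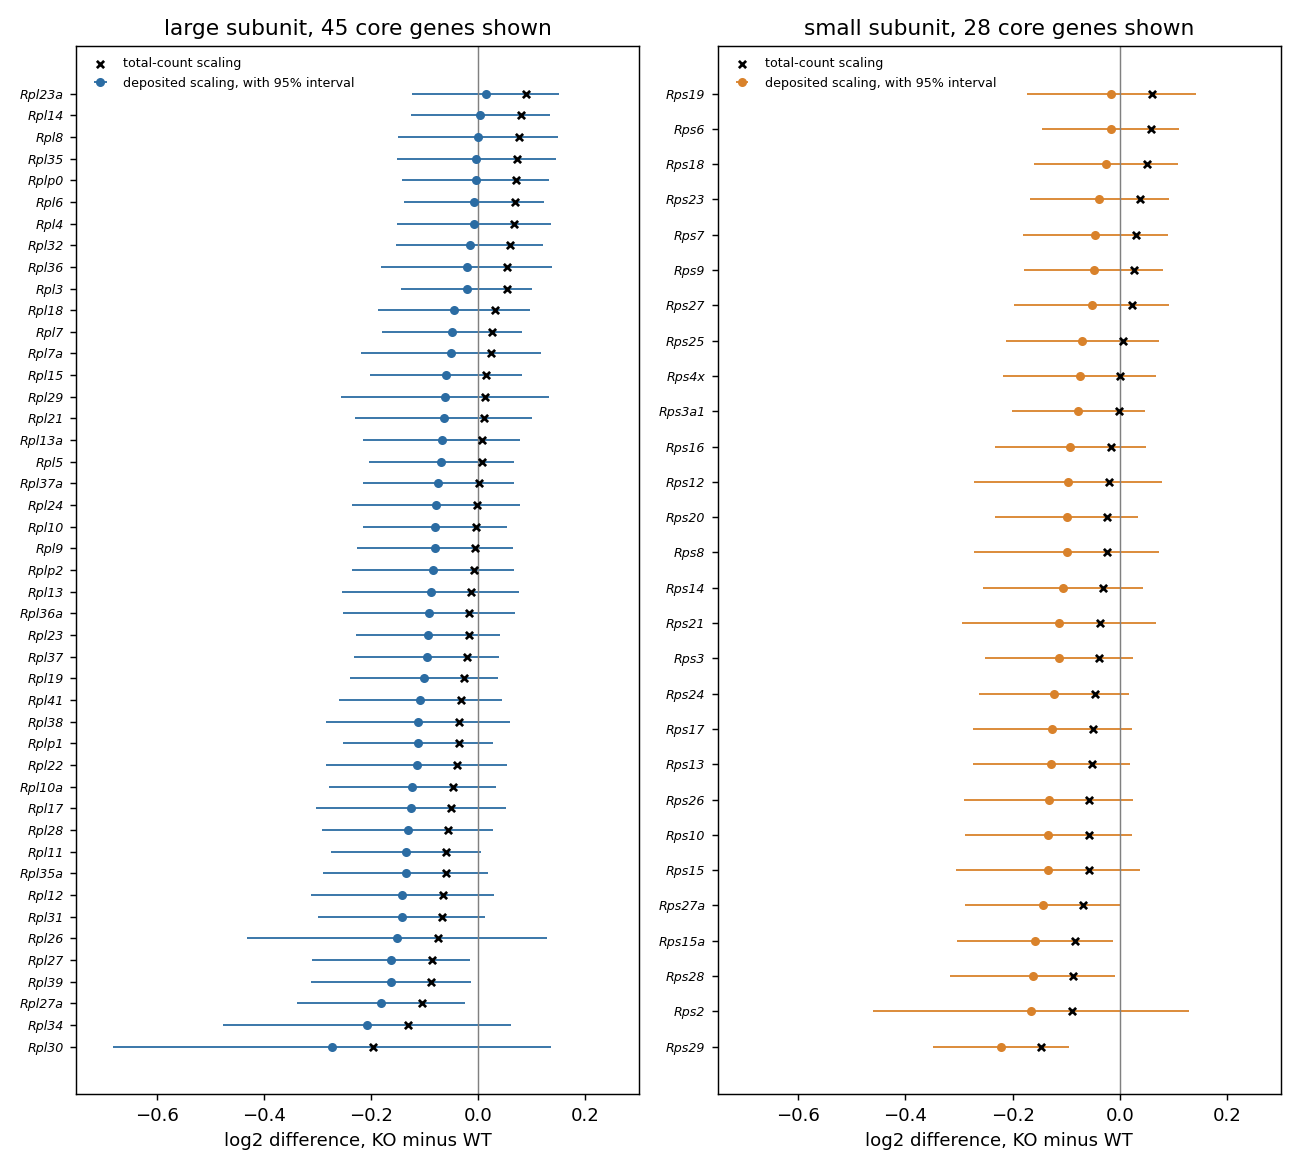
Log2 difference, KO minus WT, of the core genes shown, large subunit on the left and small on the right, ordered by size; coloured points with 95% intervals use the deposited factors and crosses use total-count scaling. Most coloured points lie left of 0 and the crosses lie on both sides, and Rps29 is the small subunit gene farthest left, at -0.22.

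Although no gene passed the test, in 9 of the 87 genes (10.3%) each KO library lay below each WT library, among them Rps29, Rps27l, Rpl27a, Rpl27, Rpl39, Rps15a, Rpl35a and Rps20. Over all genes the share was 1.6%, and over the genes with at least 10000 counts it was 7.06%. In 0 ribosomal protein genes did each KO library lie above each WT library, against 231 of all 14905 genes and 18 of the 1077 with at least 10000 counts. With total-count scaling the count of genes with lower KO ranges fell to 1 of the 87, Rps29. The same was seen in 0.852% of all genes and in 33 of the 1077 genes with at least 10000 counts. The count with higher KO ranges stayed at 0, against 4.6% of all genes and 50 of those 1077.

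Rps29, a zinc-binding protein of the head of the small subunit, had 56232, 57110, 52589, 57011 and 56035 counts in KO 1 to 5 and 63922, 67005, 66090 and 63204 in WT 1 to 4. KO 3 was the lowest, and the other KO libraries lay close together. The means were 55795 ± 1853 (SD, n = 5) and 65055 ± 1788 (SD, n = 4), a log2 difference of -0.22 (SE 0.060, 95% interval -0.35 to -0.09), and -0.15 with total-count scaling. The gene lies on chromosome 12 from 69157722 to 69159186 (minus strand, GRCm38). All its coding words of 50 bases also occur in other annotated genes, Gm14303 foremost.

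Rps27l, a paralog of Rps27 that p53 is known to induce, had 11715, 12572, 10086, 11538 and 11088 counts in KO and 13510, 14720, 13151 and 13246 in WT. Its groups did not overlap, and its log2 difference was -0.26 (SE 0.086; limma adjusted p = 0.284), or -0.19 with total-count scaling, where the ranges overlapped. Its partner Rps27 had 32821 ± 1449 and 34039 ± 1820 counts, a difference of -0.05 with the deposited factors and 0.02 with total-count scaling. The share of Rps27l in the sum of both, which no scaling changes, was 25.8% ± 1.13 in KO (24.6 to 27.2, n = 5) and 28.6% ± 0.820 in WT (27.5 to 29.3, n = 4), and these ranges did not overlap. All coding words of Rps27 also occur in its retrocopy Rps27rt, which held 32295 ± 1317 counts in KO and 33213 ± 1988 in WT. The size of this share therefore depends on how reads were divided between Rps27 and Rps27rt, which is not known.

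Rpl27a, a large subunit protein, had 25259, 24820, 23919, 21392 and 24857 counts in KO and 25607, 28364, 28133 and 26838 in WT (log2 difference -0.18, SE 0.074). Rpl39, a small protein that lines the tunnel through which the new chain leaves, had 18506, 18680, 18464, 18028 and 18902 in KO and 20661, 22145, 20743 and 19450 in WT (-0.16, SE 0.070). In both genes the gap between the highest KO and the lowest WT library was narrow against the range within WT. Limma adjusted p-values were 0.465 for Rpl27a and 0.49 for Rpl39. With total-count scaling these differences were -0.10 and -0.09.

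Rps15a had 17335 to 18556 counts in KO and 19571 to 20650 in WT (-0.16), and Rpl27 had 23526 to 25897 and 26137 to 28972 (-0.16). Rps20 had 28442 to 29560 and 30470 to 32381 (-0.10), and Rpl35a had 13676 to 14858 and 15145 to 15984 (-0.13). These 4 had adjusted p-values of 0.49 to 0.674 in limma. Rpl27, Rps15a, Rps20 and Rpl35a stood at -0.09, -0.08, -0.02 and -0.06 with total-count scaling.

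**Figure D3:**
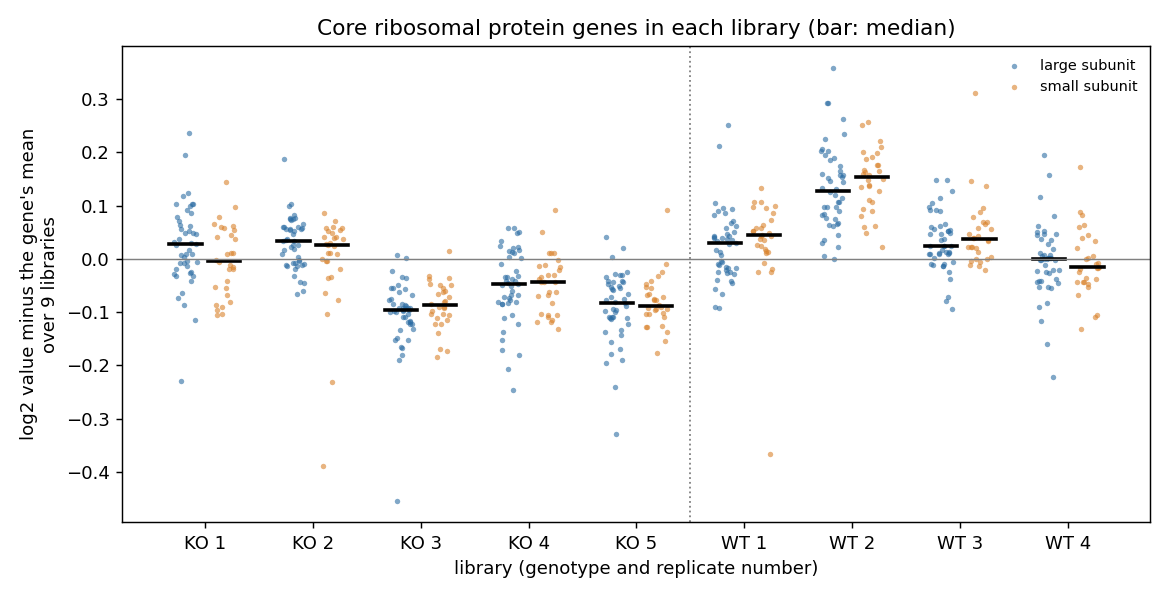
Each point is 1 core gene in 1 library, as its log2 value minus its mean over the 9 libraries, blue for large and orange for small subunit genes, with a bar at the median. The medians move up and down together in both subunits, highest in WT 2 and lowest in KO 3, and the KO and WT libraries overlap.

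The family moved together from library to library. The median deviation of the 87 genes from their means was 0.009, 0.03, -0.09, -0.04 and -0.08 on the log2 scale in KO 1 to 5 and 0.04, 0.13, 0.03 and -0.0013 in WT 1 to 4. WT 2 stood highest and KO 3 lowest, and KO 1 and KO 2 lay above WT 4, so the groups overlapped. Over the 2850 pairs of core genes the correlation across the 9 libraries had a median Pearson r of 0.64, with 98.5% of pairs above 0. Pairs within the large subunit (median 0.61), within the small subunit (0.69) and between them (0.64) had similar medians. With total-count scaling the median was 0.47, with 90.4% above 0. The libraries and their scaling are shared by all pairs, so these values are a description and carry no p. The correlation of pairs of other genes was not computed, so the values do not show a trait particular to this family.

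Setting each gene against the median core gene of the same library removes this common movement and the scaling with it. On that scale the KO range lay below the WT range in 2 of the 87 genes, Rps27l and Rps29, against 0.711% of all genes. It lay above in 4 of the 87, all of the large subunit, among them Rpl23a, Rpl14 and Rpl35, against 2.88% of all genes. The median of the 87 genes lay 0.11 below that of all genes, so on this scale genes at large shift upward in KO. No share was taken here over the genes with at least 10000 counts. The relative log2 difference was -0.17 for Rps27l and -0.13 for Rps29. It was 0.10 for Rpl23a, 0.09 for Rpl14 and 0.08 for Rpl35. For Rpl14 the relative values ran from 0.02 to 0.06 in KO and from -0.06 to -0.04 in WT. For Rpl23a, which sits at the exit of the tunnel, they ran from 0.03 to 0.06 and from -0.09 to -0.02. The counts of these 2 genes themselves differed little: Rpl14 had 58209 ± 1767 in KO and 58054 ± 2402 in WT, and Rpl23a 39867 ± 1326 and 39494 ± 1907.

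The ratio of large to small subunit counts was slightly higher in KO, with ranges that overlapped at their ends. The large subunit genes held 2.88% ± 0.0977 of all counts in KO and 2.85% ± 0.124 in WT, and the small subunit genes 2.09% ± 0.0498 and 2.11% ± 0.10 (SD, n = 5 and 4). The summed large subunit counts divided by the summed small subunit counts gave 1.39, 1.40, 1.37, 1.36 and 1.37 in KO 1 to 5 and 1.34, 1.35, 1.35 and 1.36 in WT 1 to 4. KO 4 lay under WT 4 by a small margin, and the other KO libraries lay above all WT libraries. On the log2 scale the ratio was 0.463 ± 0.0169 in KO and 0.434 ± 0.0110 in WT, a difference of 0.03. Within the deeper libraries (4 KO, 2 WT) the difference was 0.04 and within the shallower ones (1 KO, 2 WT) 0.02. Among the 18 genes that share at most 50% of their words with other genes, a choice made after seeing the data, it was 0.08. Only 10 of these 18 were core genes (4 large, 6 small). The rest were paralogs, retrocopies and Rps19bp1, so this value rests on few genes.

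**Figure D4:**
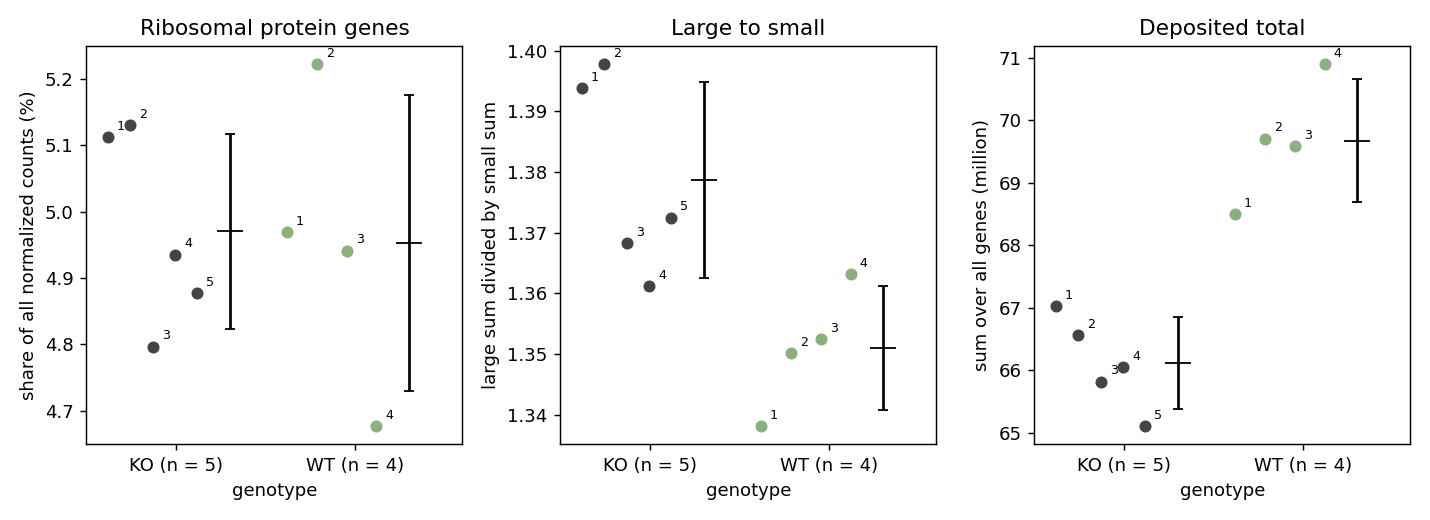
Share of all normalized counts held by ribosomal protein genes (left), large subunit sum divided by small subunit sum (middle) and sum of the deposited values (right), by genotype; points are libraries marked with their replicate number, and bars give mean and SD. The axes do not start at 0. Shares overlap between genotypes, the ratios overlap only through KO 4 and WT 4, and the totals do not overlap.

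Among the core genes, shorter and less counted genes had the lower differences. Across the 76 core genes the log2 difference and the coding length had a Spearman rho of 0.42 (0.48 in the large subunit, 0.25 in the small), and the difference and the mean count a rho of 0.60. Total-count scaling shifts all genes alike and leaves these orders nearly as they are. In the large subunit the median difference was -0.11 for the 5 genes with a coding length up to 300 bases, -0.12 for the 16 of 301 to 450, -0.08 for the 11 of 451 to 600 and -0.05 for the 14 longer ones. In the small subunit the same medians were -0.14, -0.10, -0.12 and -0.08, over 4, 11, 8 and 7 genes. Over the 1039 protein-coding genes with at least 10000 counts the rho with coding length was 0.12, and over all 13693 protein-coding genes with a length it was 0.05. These relations are across genes, which share their libraries, and they carry no p. Bins of this size rest on few genes, and the 9 shortest hold Rps29, Rpl39 and Rps28 as well as Rps27 and Rpl37a, which lay nearer to 0.

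**Figure D5:**
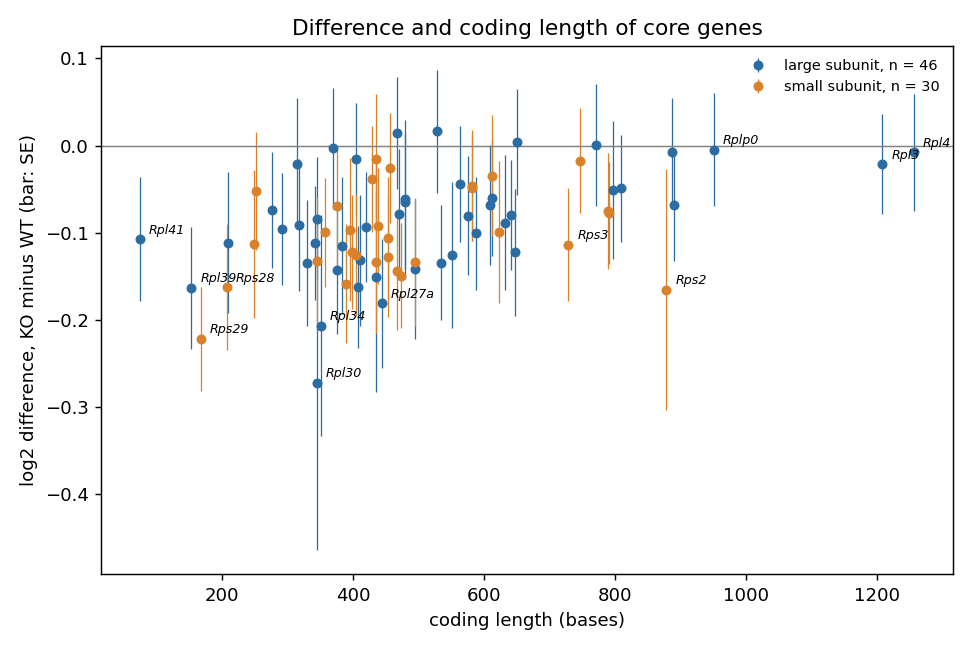
Log2 difference, KO minus WT, with its standard error, against coding length in bases for the 76 core genes, blue for large and orange for small subunit genes. The longest genes, Rpl4 and Rpl3, lie near 0, the short genes Rps29 and Rpl39 lie lower, and the genes between them scatter over most of the range.

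The stalk of the large subunit, formed by Rplp0, Rplp1 and Rplp2, recruits the elongation factors. Rplp0 had 111035, 103182, 95850, 101664 and 104747 counts in KO and 97024, 109958, 106914 and 100642 in WT. Its ranges overlapped fully and its log2 difference was -0.0046 with the deposited factors and 0.07 with total-count scaling. Rplp1 had 40276 ± 1735 and 43524 ± 2155 (-0.11, or -0.04 with total-count scaling), and Rplp2 had 34243 ± 2031 and 36285 ± 2020 (-0.08, or -0.0084). None of the 3 passed the test in limma.

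Among the ribosomal proteins known to bind Mdm2 or to act on p53 are Rpl5, Rpl11, Rpl23, Rpl26 and Rps7, the set chosen here and not a full list. Rpl11 had 32423 to 34240 counts in KO and 34150 to 39003 in WT (log2 difference -0.13, SE 0.066), and Rpl5, which enters the ribosome with Rpl11 and the 5S RNA, had 33809 to 37945 and 36430 to 37277 (-0.07, SE 0.064). Rpl23 differed by -0.09, Rpl26 by -0.15 and Rps7 by -0.05, with limma adjusted p-values of 0.705, 0.776 and 0.852. With total-count scaling Rpl11, Rpl23 and Rpl26 stood at -0.06, -0.02 and -0.08, and Rpl5 and Rps7 turned to 0.0071 and 0.03. Rpl26 ranged from -0.27 over the deeper libraries to -0.08 without WT 2 and was the most scattered of the 5, with 4959 to 7339 counts in KO and 5340 to 7628 in WT.

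Rps6, the substrate of the S6 kinases, had 83710, 82638, 76763, 81740 and 78839 counts in KO and 81840, 84525, 83119 and 77361 in WT. The ranges overlapped nearly throughout, with a log2 difference of -0.02 (95% interval -0.14 to 0.11), or 0.06 with total-count scaling. Rps19, the gene most often mutated in Diamond-Blackfan anaemia, had 82149 ± 6001 and 83085 ± 6832 (-0.02, or 0.06). Rps3, which lines the entry of the messenger RNA channel and which shares few words with other genes, had 65577 ± 4277 and 70852 ± 1470 (-0.11, or -0.04). Rpl3, near the site of peptide bond formation, had 98690 ± 3777 and 100103 ± 982 (-0.02, or 0.05). In each of these 4 genes the groups overlapped.

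Paralogs can take the place of a core protein in the ribosome. Rpl22l1 made up 39.3% ± 1.11 of the counts of Rpl22 and Rpl22l1 in KO and 38.4% ± 2.08 in WT, and Rpl36al 46.6% ± 1.21 and 46.8% ± 1.09 of the counts of Rpl36a and Rpl36al. Rpl7l1 made up 8.57% ± 0.923 and 8.15% ± 0.445 of the counts with Rpl7 (SD, n = 5 and 4 throughout). In these 3 pairs the ranges of the groups overlapped, unlike those of Rps27l. The retrocopy Rps27rt made up 49.6% ± 0.346 and 49.4% ± 0.278 of the counts with Rps27. The coding words of these 2 genes are fully shared, and their printed start windows share a run of 19 bases that includes most of the tract, so an even division of the same reads and a transcribed retrocopy cannot be told apart in these counts.

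Rpl3l, the form of striated muscle, and Rpl39l, the form of the testis, were at or near the floor. Rpl3l was listed at the floor of 1 in KO 3, KO 5 and WT 2, with a highest count of 24.0 in KO 4, and Rpl39l was at the floor in KO 1, KO 3 and WT 2 with a highest count of 59.4 in WT 1. Rps4l had 245 to 449 counts in KO and 367 to 557 in WT (log2 difference -0.52, SE 0.338; limma adjusted p = 0.689), beside 45839 ± 1887 and 48325 ± 3067 for Rps4x. Rpl32l had 243 to 388 and 244 to 398, beside 94259 to 106996 and 97675 to 107484 for Rpl32. These rows hold few of the family's reads and say little about a difference.

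Rpsa, Fau and Gnb2l1, outside the symbol rule, lay with the rest, and 0 of 3 passed the test, against 0.309% of all genes. Fau had 46929 to 53370 counts in KO and 52451 to 61742 in WT (log2 difference -0.14, or -0.07 with total-count scaling), and Gnb2l1 40682 to 48311 and 46943 to 51800 (-0.13, or -0.05). Rpsa differed by -0.06, and with total-count scaling it turned to 0.01. The groups of all 3 overlapped.

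Of the genes that work with the ribosome, 0 passed the test in either direction, against 46 of all 14905 genes (0.309%). The counts were 0 of 16 elongation factors and other TOP messenger RNAs and 0 of 25 initiation factors. They were 0 of 14 genes of mTOR and TOP control and 0 of 10 chaperones and surplus control genes. At that share, counts of 0 in lists of this size say little. The median log2 differences of these lists, in the same order, were -0.04, -0.05, -0.09 and -0.03 with the deposited factors. With total-count scaling they were 0.04, 0.02, -0.01 and 0.04. Eef1a1, which brings aminoacyl-tRNA to the ribosome, had 409231 to 461123 counts in KO and 463757 to 485799 in WT (-0.11, or -0.03 with total-count scaling), with no overlap and a limma adjusted p of 0.603. Nap1l1, a histone chaperone with a TOP message, differed by -0.21 (SE 0.097; -0.05 over the 6 deeper libraries alone) and the helicase Eif4a2 by 0.20 (SE 0.091), with limma adjusted p-values of 0.549 and 0.532. Mtor itself had 1018 to 1449 counts in KO and 740 to 1169 in WT (0.34, SE 0.207; 0.57 over the deeper libraries and 0.22 without WT 1), and its inhibitor Tsc1 367 to 693 and 647 to 949 (-0.53, SE 0.288; -0.25 over the deeper libraries). Grwd1, a chaperone of Rpl3, had 711 to 1647 and 295 to 733 (0.78, SE 0.333; limma adjusted p = 0.485). Its difference was 1.19 over the deeper libraries and 0.47 without WT 1. Cdkn1a, a target of p53, had 16830 to 18613 and 18731 to 20645 (-0.15, SE 0.072; adjusted p = 0.553), with no overlap.

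Other genes were set against the mean log2 pattern of the 87 genes, which includes rows near the floor such as Rpl3l and Rpl39l. Only genes at or above the median gene in mean count were searched. The most alike were Atg3 (Pearson r 0.950), Pdap1 (0.947), Mnt (0.938), Clptm1l (0.935) and Set (0.932), all described over the same 9 libraries and scaling.

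Other measures of the libraries are given beside these results; of those below, Rn45s and the mast cell and endothelial sums did not overlap between genotypes, and the other sums did. Rn45s, the row of the ribosomal RNA precursor, held 1.84% to 2.16% of counts in KO and 2.64% to 3.54% in WT, and it alone made 21.8% of the difference between the groups' totals, while the ribosomal protein genes made 4.57%. Mast cell markers (7 of 7 measured) summed to 1511 to 2838 counts in KO and 5157 to 9426 in WT, with Fcer1a at the floor in all 5 KO libraries. Of the 7, 4 were called lower, against 0.309% of all genes called in either direction. The ranges of Kit overlapped, and Ms4a2, at 1 to 111 counts in KO and 1 to 8.30 in WT, differed the other way (log2 difference 0.61). Endothelial markers (7 of 7) summed to 3664 to 6561 and 1428 to 3111, mesothelial markers (6 of 6) to 5253 to 16781 and 1768 to 7128, fibroblast markers (6 of 6) to 277611 to 431536 and 193638 to 323435, and neutrophil markers (5 of 6) to 525.9 to 1116 and 239 to 567.8. T and NK cell markers (7 of 8) summed to 1538 to 2222 and 1426 to 1810, and B cell markers (5 of 6) to 2117 to 2814 and 1957 to 4013. Genes induced by tissue dissociation (12 of 12) summed to 370659 to 494618 and 317748 to 374026. The part of these measures in the differences of ribosomal protein genes was not tested.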

How the data were processed

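RNA-seq libraries of 5 Nucb2-/- and 4 wild-type samples were compared. According to the labels, polyadenylated RNA was taken on oligo-dT beads and libraries kept strand through dUTP. The submitters' processing notes list HISAT, Partek, DESeq2, CASAVA 1.8.2 and mm10 without a role for any; the annotation, the treatment of shared reads and the use of strand in counting were not stated. The deposited table holds a signal for each gene, namely its reads over a library factor, with 1 as its lowest value. This was read from the steps of the values, which gave whole reads within a tolerance of 0.1 of a step. All columns matched a library by name.

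Log2 of the value plus 1 was tested with limma 3.58.1 (R 4.3.3), with a mean-variance trend and genotype as the only term, two-sided; p-values were adjusted over all 14905 genes (Benjamini-Hochberg, 0.05). The added 1 makes the changes of low genes look smaller. The filter, at least 1 in at least 4 libraries, could remove no gene, since the lowest value is 1. The alternative without a filter therefore repeated the main fit. The script was tested on simulated data. Alternatives were pseudocounts, filters, scalings, a replicate block, depth class, deeper libraries alone, limma-voom, each library left out, and a stricter member rule. Total-count scaling, the relative scale and the limit on shared words were added after the data were seen. The replicate numbers did not pair the libraries.

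Members and gene lists were chosen with earlier results of these data known. The rule named Nucb2; in each subunit the 4 genes with the smallest p and the 3 highest and lowest by difference, level per length and variation among WT libraries; the stalk, paralog and p53-binding genes; Rps6 and Rps19; and outside the rule Rpsa, Fau, Gnb2l1 and the leading genes of each list. The genes of non-overlapping ranges, Rpl14, Rpl23a, Rpl35, Rpl8, Rps10, Rpl15, the retrocopies, pseudogene rows, Rn45s and Fcer1a were picked after their values were seen. So were Kit and Ms4a2. Positions, lengths and words are from GENCODE M21 (GRCm38), start windows from RefSeq. Some genes are counted in totals but not reported by name or shown in the figures that name genes.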

Additional observations from a re-analysis of the deposited data

Results flagged for a closer look

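Within the groups of the named genes, 94 sets of values were searched for a library far from the others, and 2 were found; chance alone marks about 1 in 20. Rps29 stood apart in KO 3 at 52589 counts, with the other KO libraries between 56035 and 57110, and KO 3 was also the lowest library for the family as a whole. Rpl7l1, a paralog that works in ribosome assembly, stood apart in WT 4 at 6131 counts, with the other WT libraries between 7128 and 7225.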

How the results depend on the processing

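Over 22 alternatives, 0 ribosomal protein genes were called in any fit, and 19 of the 55 named genes changed sign at least once. The smallest adjusted p of a member lay between 0.133 and 0.586. Total-count scaling, chosen after seeing the data, moved the median difference to -0.0044 (large) and -0.0339 (small) and turned Rpl22l1 to 0.0172, Rpl3 to 0.0543, Rpl32 to 0.06002, Rpl36 to 0.0547, Rpl5 to 0.00708, Rpl7 to 0.0267, Rplp0 to 0.0710, Rps18 to 0.0501, Rps19 to 0.0599, Rps27 to 0.0235, Rps4x to 0.000546, Rps6 to 0.0584, Rps7 to 0.0296, Rps9 to 0.0267 and Rpsa to 0.0135. Quantile normalization turned Eef1a1 to 0.138, Rpl3 to 0.0454, Rpl32 to 0.0501, Rpl36 to 0.0237, Rplp0 to 0.0712, Rps18 to 0.0138, Rps19 to 0.02996, Rps6 to 0.0173 and Rps9 to 0.0342, and left 66 of 87 genes under 0. With a term for depth class Rpl32l turned to -0.0322, Rpl39l to 0.0841, Rpl7l1 to -0.0492 and Rplp0 to 0.0000468, and in the deeper libraries alone Rpl32l turned to -0.0379. Among the 18 genes sharing at most 50% of words, 10 of them core, the large subunit median was -0.0079 and the log2 ratio of the subunits differed by 0.0822.

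Replicate numbers did not pair the libraries: same-numbered libraries correlated at -0.021 to 0.017 after removal of group means, and 2 of 4 correlated best with their own number. The replicate block leaves out KO 5, and its differences were those of the fit that only left out KO 5. In them Rpl32 turned to 0.00354, Rpl36 to 0.0127 and Rps19 to 0.0059, and 75 of 87 genes lay under 0. With the block Nucb2 stood at -1.58 (adjusted p 0.0515, limma). Calls over all genes fell from 46 to 0 with the block and in the deeper libraries alone.

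With each library left out in turn, the median difference ranged from -0.104 to -0.0578 (large) and -0.126 to -0.0741 (small), the share from -0.074 to 0.108 percentage points, the log2 ratio of the subunits from 0.0243 to 0.0339, and calls over all genes from 5 to 38. Differences ranged from -0.0401 to 0.0141 for Rpl32, -0.0633 to 0.0265 for Rpl36, -1.68 to 0.139 for Rpl39l, -0.0314 to 0.108 for Rpl7l1, -0.0357 to 0.0245 for Rplp0, -0.0627 to 0.0317 for Rps19 and -0.0433 to 0.000793 for Rps6. The cause of these changes was not tested. The planned edgeR test on recovered reads was not run, since values under 1 had been set to 1.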
